A study of Mus musculus with 188 samples.

Results

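The activator protein 1 (AP-1) subunits Fos, Fosb, Fosl1, Fosl2, Jun, Junb and Jund and the nuclear receptors Nr4a1, Nr4a2 and Nr4a3 were followed in organotypic brain slice cultures exposed to heme-albumin, hemoglobin (Hb) or their complexes with the plasma scavengers hemopexin (Hpx) and haptoglobin (Hp). The 10 genes were taken by family name, but with earlier results of these data known. Their counts beside the share of all genes are therefore descriptions. They are 10 of 25655 genes listed for the libraries of the first sequencing batch and of 25528 listed for the other libraries, and all 10 passed the filter on low counts in both sets. The series holds 188 bulk mRNA libraries of slices from male and female wildtype C57BL/6J mice, 6 to 8 weeks old, with 2 coronal slices per culture insert, treated from day 7 of culture. The batch 1 libraries, all of 24 h, form 6 groups of 10: vehicle control, heme-albumin at 12.5, 50, 200 and 400 μM, and 200 μM heme bound to hemopexin (hemeHpx). For hemeHpx the sample titles give haptoglobin as the scavenger, while the treatment tags and library names give hemopexin, which was followed. In batches 2 and 3 there were, at 24 h and 48 h respectively, 10 and 9 controls, 10 and 10 libraries of Hb at 200 μM, 10 and 10 of Hb at 400 μM, 12 and 11 of Hp alone at 400 μM, 8 and 8 of hemoglobin-haptoglobin (HbHp) at 200 μM, and 4 and 5 of HbHp at 400 μM. Hemoglobin, heme, the scavengers and albumin were of human origin, and every group shared the same strain and culture protocol. A further 21 libraries carried labels that leave their treatment or time open and entered no comparison.

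AP-1 is a dimer of leucine zipper proteins, in which a Fos family protein pairs with a Jun family protein, or a pair of Jun proteins binds, at the AP-1 site of target genes. Fos, Fosb, Junb, Nr4a1, Nr4a2 and Nr4a3 are classic immediate early genes, switched on without new protein synthesis by kinase cascades and calcium acting through serum response factor and the cAMP response element binding protein, and in brain they are widely used to mark stimulated neurons. Fosl1 and Fosl2 encode Fos proteins that lack the strong activation domain of Fos and commonly follow later, Jund is expressed broadly, and the Nr4a proteins are orphan nuclear receptors that bind as monomers to the NGFI-B response element.

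The stretches upstream of 5 members are shown because a short element recurs in them. They are taken from the RefSeq promoter windows of GRCm38.p6, which cover 9 of the 10 members (all but Fosl1), and they run 5′ to 3′ on the strand of the gene with capitals marking TGACG, the half-site of the cAMP response element, or its reverse complement CGTCA. Over the 250 bases before the start, the half-site on either strand occurred in 6 of the 9 member windows, against 17.6% of 27025 RefSeq windows. Nr4a1, Nr4a2 and Nr4a3 each held 4 copies, a number reached by 0.155% of all windows, and Fos held 2. In the Nr4a1 window, at chr15:101266596-101266845 on the plus strand, inside the annotated gene but outside its exons, 2 copies lay near the distal end and 2 near the start.
Nr4a1: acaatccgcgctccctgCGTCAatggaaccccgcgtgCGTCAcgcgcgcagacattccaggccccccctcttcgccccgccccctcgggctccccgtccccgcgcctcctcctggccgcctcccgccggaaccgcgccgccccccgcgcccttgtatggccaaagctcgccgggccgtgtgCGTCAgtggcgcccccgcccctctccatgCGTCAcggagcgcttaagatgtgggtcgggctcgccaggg
Nr4a2, from chr2:57124004-57124253 on the minus strand, held its 4 copies in the distal and middle parts.
Nr4a2: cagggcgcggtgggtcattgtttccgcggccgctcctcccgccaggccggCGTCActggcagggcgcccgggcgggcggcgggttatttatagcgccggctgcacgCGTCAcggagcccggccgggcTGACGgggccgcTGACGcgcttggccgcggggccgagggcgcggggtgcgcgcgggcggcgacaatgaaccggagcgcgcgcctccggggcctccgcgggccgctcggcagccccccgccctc
The Nr4a3 stretch, chr4:48045055-48045152 on the plus strand, leaves out the annotated exon downstream of it and carries 3 of the 4 copies.
Nr4a3: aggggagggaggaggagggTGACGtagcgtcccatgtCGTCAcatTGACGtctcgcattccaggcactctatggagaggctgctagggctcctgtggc
Fos, chr12:85473640-85473889 on the plus strand, and Fosb, chr7:19310052-19310295 on the minus strand, carried 2 copies and 1 copy.
Fos: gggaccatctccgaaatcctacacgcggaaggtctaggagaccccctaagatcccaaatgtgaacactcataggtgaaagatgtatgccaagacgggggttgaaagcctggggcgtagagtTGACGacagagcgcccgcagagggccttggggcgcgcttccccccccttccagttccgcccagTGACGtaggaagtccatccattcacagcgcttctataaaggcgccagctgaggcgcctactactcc
Fosb: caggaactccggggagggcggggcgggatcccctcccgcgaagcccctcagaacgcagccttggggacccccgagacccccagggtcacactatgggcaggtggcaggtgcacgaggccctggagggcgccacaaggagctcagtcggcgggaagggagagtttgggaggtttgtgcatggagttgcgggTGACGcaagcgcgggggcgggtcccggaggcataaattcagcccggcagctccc
Junb held 1 copy as well, and Fosl2, Jun and Jund held none in their windows. The Fosl2 window lies inside the annotated gene and is exonic over all 250 bases. The Jund window ends at position 70697738 of chromosome 8, apart from the annotated gene start at 70698949. The annotated Nr4a1 gene starts at 101254269, far before its window. For Fosl2, Jund and Nr4a1 the windows are thus not the bases just before the annotated gene. The Nr4a3 window runs on past the annotated gene start at 48045153. The AP-1 site TGANTCA (6.87% of all windows), the full cAMP response element TGACGTCA (1.56%), the NGFI-B response element AAAGGTCA (1.34%) and the CArG box (1.39%), each searched on both strands, were found in none of the 9 member windows. A full element contains the half-site, so the searches overlap. A match is a run of letters only and was not tested for binding.

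Total counts ran from 11038484 to 44199060 per library in batch 1 (median 22054776) and from 15587938 to 54174784 in the assigned libraries of batches 2 and 3 (median 32626873). The library names of batches 2 and 3 begin with E1 or E2, called experiments here, and 68.0% of 16473 genes differed between E2 and E1 at an adjusted p under 0.05, so experiment and batch were both terms in the model. All HbHp libraries were E2 of batch 3. Summed markers of neurons (7 genes), astrocytes (5), oligodendrocytes (5) and microglia (5) were detected in every group. Microglial markers were low, with group medians of 52 to 102 CPM (read counts scaled by TMM to a common library size) in batch 1 against 549 to 637 CPM for neuronal markers. Whole slices were sequenced, so fewer cells of a type and less RNA per cell cannot be told apart. The labels do not say that the libraries of a group came from separate animals, and p-values measure only the spread between these libraries.

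In control slices of batch 1 the members spanned about 2 orders of magnitude. Per kilobase of the longest annotated transcript, Jund stood at 58.7 CPM, Jun at 47.9 CPM, Junb at 43.3 CPM and Fos at 38.8 ± 5.06 CPM (SD, n = 10). Fosl2 (9.89 CPM per kilobase) and Nr4a1 (6.61) followed, then Fosl1 (3.41), Nr4a2 (1.70), Nr4a3 (0.673) and Fosb (0.517). Fosb was so low that its control libraries held as few as 16 reads. In these controls the early response genes Fos, Junb and Nr4a1 were well detected, with Junb spread widely, from 35.6 to 106 CPM, and Nr4a1 from 7.46 to 22.5 CPM. Gene starts, ends and overlaps were read from GRCm38 with GENCODE M21. Fosl1 (ENSMUSG00000024912, chromosome 19, 5447547 to 5455946, plus strand) overlaps Ccdc85b on the other strand, Junb overlaps Prdx2, Jun overlaps the antisense gene Junos and Jund overlaps Gm11175. The strand setting of the counting is not given in the sources used here, so reads of such pairs may not be told apart. Ccdc85b itself did not pass the test in any comparison of treatments, its log2 fold change at 400 μM heme-albumin being 0.16 ± 0.13 (SE, adjusted p = 0.375).

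Heme-albumin raised AP-1 and Nr4a transcripts in a dose series headed by Fosl1. No member passed the test at 12.5 μM, where 0.0450% of the 15554 genes tested did, with 2 members under an unadjusted p of 0.05 and none by DESeq2. At 50 μM Fosl1 alone passed, beside 0.463% of all genes. At 200 μM 5 members were higher, where 13.6% of all genes passed and 6.98% were higher. At 400 μM 8 members were higher, where 14.7% of all genes were higher and 14.3% lower, and no member was lower at any dose. The median log2 fold change of the members was 0.30 at 200 μM and 0.71 at 400 μM, beside −0.01 for all genes tested at both doses. At 400 μM the Fos family had a median of 1.20, the Nr4a family 0.76 and the Jun family 0.33. These heme-albumin comparisons share the same 10 controls.

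**Figure D1:**
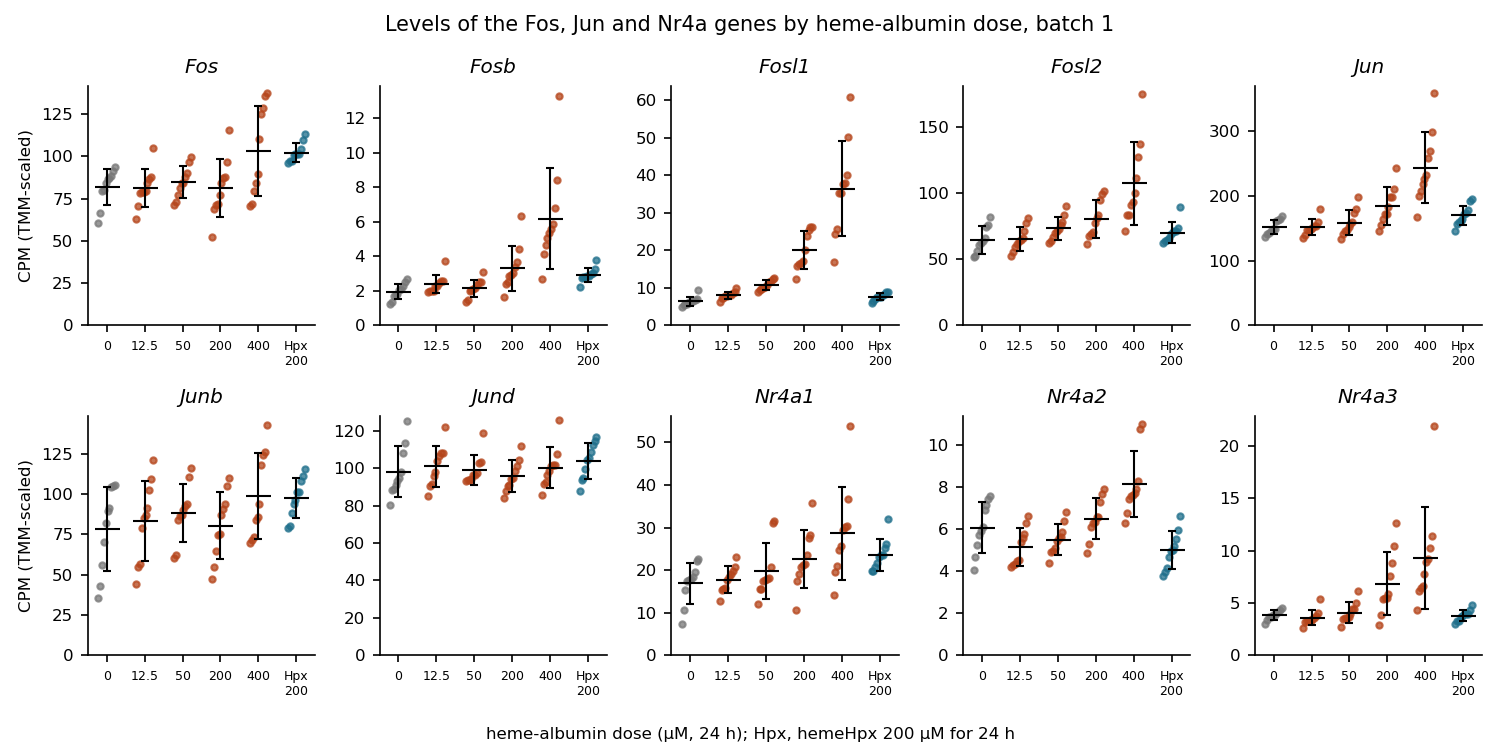
Levels of the 10 members in batch 1 (CPM, one panel per gene), by heme-albumin dose in μM and for 200 μM hemeHpx (Hpx 200). Points are single libraries (10 per group) and bars the mean ± SD; Fosl1 climbs from 6.36 CPM in controls to 36.5 CPM at 400 μM and stands at 7.67 CPM with hemeHpx, while Jund stays near 100 CPM.

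Fosl1, a Fos protein of the late wave, had the steepest series. Its lowest, median and highest levels were 4.87, 6.18 and 9.36 CPM in controls and 6.34, 7.92 and 9.82 CPM at 12.5 μM. They were 8.87, 10.4 and 12.7 CPM at 50 μM, 12.5, 18.6 and 26.3 CPM at 200 μM, and 16.9, 36.6 and 61.01 CPM at 400 μM. Of the 50 μM libraries 8 lay above every control, the overlap being with the control library at 9.36 CPM, and all 10 libraries at 200 μM and all 10 at 400 μM lay above every control. The log2 fold change over control was 0.75 ± 0.14 (SE) at 50 μM (1.68-fold, adjusted p = 0.00105), 1.65 ± 0.14 at 200 μM (3.15-fold, adjusted p = 2.03e-13) and 2.52 ± 0.14 at 400 μM (5.73-fold, adjusted p = 5.97e-21). At 12.5 μM it was 0.33 ± 0.14 and did not pass (adjusted p = 0.614). The step from 200 to 400 μM was 0.87 ± 0.13 (adjusted p = 0.000211), in a comparison where 1.27% of genes passed.

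Fosb, a Fos protein of the immediate early wave, changed at the 200 and 400 μM doses. Its libraries lay between 1.26 and 2.67 CPM in controls (median 1.93), between 1.67 and 6.33 CPM at 200 μM (median 2.96) and between 2.68 and 13.3 CPM at 400 μM (median 5.45). Only at 400 μM were the groups separate, the lowest treated library lying just above the highest control. The log2 fold changes were 0.76 ± 0.19 (adjusted p = 0.0041) and 1.66 ± 0.19 (3.16-fold, adjusted p = 4.8e-10), and 400 μM exceeded 200 μM by 0.90 ± 0.18 (adjusted p = 0.00316).

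Fos itself responded late in the dose series and weakly. It measured 81.8 ± 10.7 CPM in controls and 81.3 ± 17.3 CPM at 200 μM (SD, n = 10 each), a log2 difference of −0.01 with a 95% interval of −0.22 to 0.20. At 400 μM it measured 103 ± 26.9 CPM, from 70.8 to 137 CPM, overlapping the controls at 60.6 to 93.7 CPM, and rose by 0.34 ± 0.11 (adjusted p = 0.0122). Fosl2, which like Fosl1 lacks the strong activation domain, rose by 0.32 ± 0.11 at 200 μM (adjusted p = 0.0405) and by 0.73 ± 0.11 at 400 μM (adjusted p = 3.61e-07). Its mean went from 64.6 CPM in controls to 80.7 and 108 CPM, and at 400 μM 9 of 10 libraries lay above the highest control at 82.3 CPM.

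Among the Jun proteins only Jun passed the test. Jun measured 153 ± 11.1 CPM in controls, 184 ± 29.1 CPM at 200 μM and 244 ± 55.1 CPM at 400 μM (SD, n = 10 each). All but 1 of the 400 μM libraries, the lowest at 168 CPM, lay above the highest control at 169 CPM. The log2 fold changes were 0.27 ± 0.09 (adjusted p = 0.0231) and 0.68 ± 0.09 (adjusted p = 6.51e-09). Jund had a log2 fold change of 0.03 ± 0.07 at 400 μM, with a 95% interval of −0.10 to 0.16, and Junb one of 0.33 ± 0.17 (adjusted p = 0.135). After a correction for GC content and transcript length, Jun and Fosl2 did not pass at 200 μM (adjusted p = 0.0992 and 0.0575).

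The 3 Nr4a receptors separated by dose. Nr4a3, at 3.85 ± 0.445 CPM in controls, reached 6.85 ± 3.03 CPM at 200 μM and 9.30 ± 4.90 CPM at 400 μM, where single libraries ran from 4.35 to 21.9 CPM. All but 1 of the 400 μM libraries were above the highest control of 4.51 CPM. It rose by 0.84 ± 0.19 (adjusted p = 0.00188) and 1.27 ± 0.19 (2.42-fold, adjusted p = 5.83e-07). Nr4a1 rose at 400 μM by 0.76 ± 0.18 (adjusted p = 0.000815), from a median of 17.8 to 27.6 CPM with overlapping ranges, and had a difference of 0.42 ± 0.18 at 200 μM that did not pass (adjusted p = 0.111). Nr4a2, the receptor required for midbrain dopamine neurons, rose at 400 μM by 0.43 ± 0.11 (adjusted p = 0.00241), from a mean of 6.07 to 8.13 CPM.

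The spread within the heme-albumin groups was shared between members. Replicate 9 was the highest library of its group for 8 of the 10 members at 400 μM and for 7 at 200 μM, while replicate 5 at 400 μM and replicate 8 at 200 μM were lowest for 7 and 8 members. Replicate 9 at 400 μM held 61.01 CPM of Fosl1, 13.3 CPM of Fosb, 21.9 CPM of Nr4a3 and 359 CPM of Jun. Without replicate 9 Fosl2 and Jun no longer passed at 200 μM (adjusted p = 0.0794 and 0.0521), which took the count from 5 to 3, while 8 members passed at 400 μM. The step of Fosl2 from 200 to 400 μM was also lost without replicate 9 of the 400 μM group (adjusted p = 0.151). Astrocyte and microglial markers had lower medians at 200 and 400 μM than in controls. The summed astrocyte markers had a median of 9271 CPM in controls (6865 to 10210), 6740 CPM at 200 μM (5296 to 9046) and 6283 CPM at 400 μM (4491 to 7906), and 3 and 4 of the 5 markers were lower at the respective doses. Microglial markers had medians of 90.3, 52 and 65.3 CPM, with 4 and 2 of 5 lower, and of 73.5 and 81.3 CPM at 12.5 and 50 μM, without a steady trend. Of all genes tested, 13.6% passed at 200 μM and 14.3% were lower at 400 μM. Neuronal markers had medians of 561, 574 and 549 CPM. Whether these shifts had a part in the members' values was not tested.

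Binding of the same 200 μM heme to hemopexin instead of albumin was compared within batch 1. With hemeHpx, Fosl1 was far below its level with heme-albumin. The hemeHpx libraries lay between 5.89 and 8.97 CPM (median 7.65), inside the control range and all below the lowest heme-albumin library at 12.5 CPM. Against heme-albumin Fosl1 was lower by 1.38 ± 0.14 on the log2 scale (0.383-fold, adjusted p = 1.25e-10), and against control its difference was 0.27 with a 95% interval of −0.01 to 0.55 (adjusted p = 0.178). Nr4a3 was also lower with hemeHpx than with heme-albumin (log2 difference −0.86 ± 0.19, adjusted p = 0.00104), at 3.79 ± 0.527 CPM against 6.85 ± 3.03 CPM, and so was Nr4a2 (−0.38 ± 0.11, adjusted p = 0.0103). Of the 10 members 4 differed between the scavenger and albumin forms, in a comparison where 25.9% of genes did.

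Fos went the other way. With hemeHpx its 10 libraries lay between 95.9 and 113 CPM (median 101), all above the highest control at 93.7 CPM, and closer together than in any other group of batch 1. Fos was higher than in controls by 0.32 ± 0.11 (adjusted p = 0.0479) and higher than with heme-albumin by 0.33 ± 0.11 (adjusted p = 0.0183). Fosb was higher than in controls by 0.59 ± 0.19 (adjusted p = 0.0459), with 2.94 ± 0.404 CPM against 1.95 ± 0.457 CPM, and its difference from heme-albumin was −0.17 with a 95% interval of −0.53 to 0.18. These 2 members called against control compare with 8.20% of all genes. Both calls were lost without the filter on low counts (adjusted p = 0.0676 for Fos and 0.065 for Fosb) and once GC content and length were corrected for (0.136 and 0.174).

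**Figure D2:**
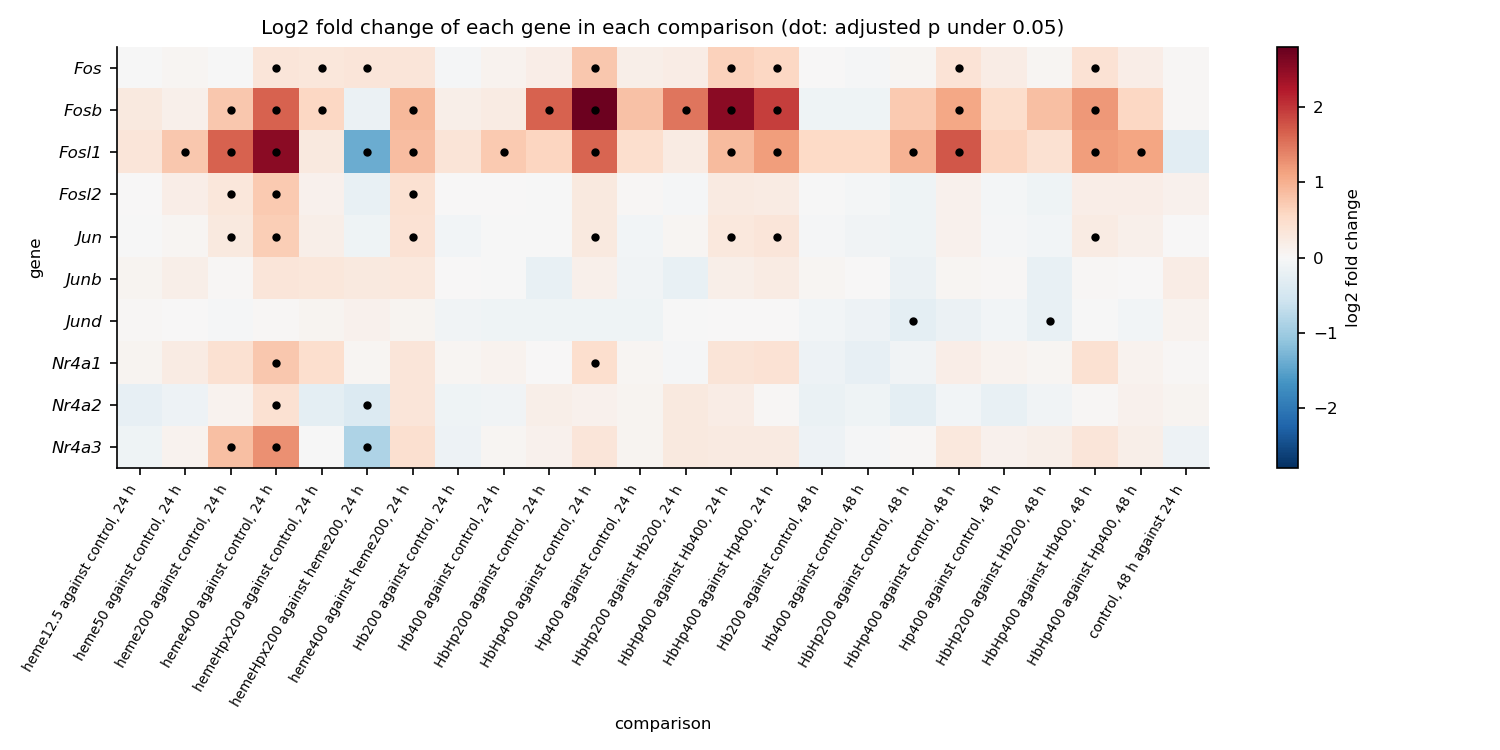
Log2 fold changes of the 10 members (rows) in each comparison (columns), in colour from lower to higher; a dot marks an adjusted p under 0.05 from edgeR. The dots gather in the Fosl1 and Fosb rows and in the columns of heme-albumin at 200 and 400 μM and of HbHp at 400 μM.

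Free Hb moved few members. At 200 μM no member passed at 24 h (0.0971% of 16473 genes did) or at 48 h (0.310%), with 0 and 1 members under an unadjusted p of 0.05 and none by DESeq2. Within experiments Fosl1 lay apart from its controls in places. The 8 E1 libraries at 24 h (6.02 to 13.5 CPM), the 7 E1 libraries at 48 h (6.86 to 8.39 CPM) and the 3 E2 libraries at 48 h (3.52 to 5.54 CPM) were all above the controls of their own experiment, whose highest were 5.94, 6.42 and 3.34 CPM, whereas the 2 E2 libraries at 24 h (4.62 and 6.17 CPM) were not. Fitted on E1 alone, Fosl1 passed at 24 h (0.69, adjusted p = 0.01), and with groups split by experiment it did not (0.67 ± 0.17, adjusted p = 0.0765). At 400 μM Fosl1 rose at 24 h by 0.74 ± 0.19 (1.67-fold, adjusted p = 0.0337), where 0.522% of genes passed. Its libraries ran from 5.56 to 10.5 CPM (median 8.65) against 4.50 to 8.15 CPM in controls (median 4.95), with overlap through the highest control. The experiments were alike in direction, with Fosl1 at 0.80 ± 0.18 in E1 (adjusted p = 0.0127, 0.231% of genes passing) and 0.48 ± 0.25 in E2 (adjusted p = 0.672, 0.124%), and the call was lost in a model with the batch term only (adjusted p = 0.359). At 48 h no member passed at 400 μM (0.601% of genes), with 4 under an unadjusted p of 0.05 and none by DESeq2. Of the 4, Fosl1 was higher at 0.56 ± 0.19 (adjusted p = 0.255). Jund (−0.15 ± 0.05), Nr4a1 (−0.23 ± 0.10) and Jun (−0.10 ± 0.05) were lower.

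HbHp at 400 μM, Hb in complex with haptoglobin, raised 5 members at 24 h (5.15% of all genes passed and 3.10% were higher) and 3 at 48 h (11.9% and 7.39%). The members' median log2 fold change was 0.30 at 24 h and 0.16 at 48 h, beside 0.00 for all genes at both times. Fosb led at 24 h. Its 4 libraries held 11.2, 13.9, 9.29 and 4.41 CPM, all above the highest of 10 controls at 2.77 CPM, a log2 fold change of 2.75 ± 0.33 (6.74-fold, adjusted p = 2.6e-09). Fos held 175, 137, 119 and 95.1 CPM against 55.2 to 91.1 CPM in controls, again without overlap, and rose by 0.75 ± 0.11 (adjusted p = 2.26e-07). Fosl1 held 21.4, 14.6, 10.8 and 6.53 CPM, of which the lowest fell within the control range, and rose by 1.63 ± 0.26 (3.10-fold, adjusted p = 7.2e-06). Jun rose by 0.28 ± 0.07 (adjusted p = 0.0117) and Nr4a1 by 0.47 ± 0.14 (adjusted p = 0.0347), while Fosl2, Junb, Jund, Nr4a2 and Nr4a3 did not pass. The libraries kept much the same order across genes, replicate 1 being highest for 7 members and replicate 4 lowest for 8. Jun and Nr4a1 lost their calls when replicate 1 (adjusted p = 0.153 and 0.213) or replicate 2 (0.0922 and 0.148) was left out, which took the count from 5 to 3, and Nr4a1 also when replicate 3 was left out (0.0905). Fitted within E2 alone, where the controls are 3 at 24 h and 2 at 48 h, Fos and Fosb passed at 24 h and Fosl1 at 48 h. With groups split by experiment, and so against E2 controls only, the 24 h log2 fold changes were smaller. They were 2.28 ± 0.40 for Fosb, 1.07 ± 0.26 for Fosl1 and 0.58 ± 0.12 for Fos. Jun (0.17 ± 0.09) and Nr4a1 (0.31 ± 0.17) did not pass there.

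At 48 h Fosl1 led. The 5 libraries held 14.6, 8.19, 13.6, 11.7 and 9.80 CPM, all above the highest control at 6.42 CPM, and Fosl1 rose by 1.73 ± 0.26 (3.31-fold, adjusted p = 6.81e-07). Fos held 113, 98.7, 106, 105 and 99.2 CPM, also above every control (55.1 to 83.03 CPM), and rose by 0.38 ± 0.10 (adjusted p = 0.00755). Fosb held 3.81, 2.01, 3.79, 2.50 and 3.39 CPM against 1.27 to 2.57 CPM, overlapping, and rose by 1.08 ± 0.34 (adjusted p = 0.0214). Fosb lost its call without replicate 1 (adjusted p = 0.0591) or replicate 3 (0.0691). The Fosb response was smaller at 48 h than at 24 h by 1.67 ± 0.42 on the log2 scale, a difference that did not pass the test over all genes (adjusted p = 0.172, with 0.0304% of genes passing). No member passed that test of treatment by time for Hb, HbHp or Hp, at either dose and also by DESeq2, with 0 to 3 members under an unadjusted p of 0.05. All genes passing it came to 0.0121% for HbHp at 200 μM and to 0% for Hb at each dose and for Hp.

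At 200 μM HbHp the picture was narrower. Fosb rose at 24 h by 1.66 ± 0.30 (3.17-fold, adjusted p = 0.000147, 1.93% of genes passing), its 8 libraries running from 1.65 to 9.93 CPM (median 3.94) across the control range of 1.45 to 2.77 CPM. Within E2 alone this call was lost (log2 fold change 1.41, adjusted p = 0.187). Fosl1, at 0.61 ± 0.23 (adjusted p = 0.186), passed beside Fosb when its highest control, replicate 8 of E2, was left out (0.81, adjusted p = 0.0313). Split by experiment, and so against E2 controls only, Fosl1 stood at 0.045 ± 0.234 (adjusted p = 0.983). Fosb stood at 1.19 ± 0.36 there (adjusted p = 0.129). At 48 h Fosl1 rose by 0.98 ± 0.24 (adjusted p = 0.00354) and Jund fell by 0.27 ± 0.06 (adjusted p = 0.00227), in a comparison with 11.9% of genes passing. Jund's libraries, at 102 to 149 CPM, overlapped the controls at 123 to 164 CPM, but all 8 lay below both E2 controls at 154 and 164 CPM, the overlap being with E1 controls. Within E2 alone the difference was −0.27 and did not pass (adjusted p = 0.0748), and after a GC and length correction it was −0.14 (adjusted p = 0.0585). Replicate 1 of this group was the lowest library for 9 of the 10 members.

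Against free Hb of the same dose, HbHp at 400 μM had higher levels of Fos, Fosb, Fosl1 and Jun at both times, with 2.21% of genes passing at 24 h and 4.28% at 48 h. The largest of these differences was Fosb at 24 h (2.52 ± 0.33, 5.74-fold, adjusted p = 3.19e-07). Fosl1 exceeded Hb by 0.89 ± 0.26 at 24 h (adjusted p = 0.0499), a call lost without replicate 1, 2 or 3 of HbHp (adjusted p = 0.502, 0.146 and 0.0687), and by 1.16 ± 0.25 at 48 h (adjusted p = 0.00217). Jun was lost at 24 h without replicate 1 or 2 of HbHp (adjusted p = 0.217 and 0.113) and at 48 h without replicate 1, 3 or 4 (0.253, 0.0699 and 0.0601). Fosb was lost at 48 h without replicate 1 or 3 (0.0532 and 0.065). At 200 μM Fosb was higher with HbHp than with Hb at 24 h (1.5 ± 0.30, adjusted p = 0.00348, 0.607% of genes) and Jund lower at 48 h (−0.20 ± 0.06, adjusted p = 0.0465, 4.98% of genes). The Fosb call at 200 μM was lost within E2 alone, and the Jund call without HbHp replicate 1 (adjusted p = 0.155). HbHp was E2 only, so these comparisons rest on the experiment term, and at 400 μM within E2 alone Fos and Fosb passed at 24 h and no member at 48 h.

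Hp alone at 400 μM, the carrier without Hb, had no member past the test at 24 h (0.704% of genes passed) or 48 h (10.8%), with 4 and 2 members under an unadjusted p of 0.05. By DESeq2 the counts were 0 and 1, the 1 being Fosl1 at 48 h (adjusted p = 0.04, against 0.0547 by edgeR). These averages joined unlike experiments. At 24 h the 6 Hp libraries of E1 held 10.5 to 12.9 CPM of Fosl1, all above the 7 E1 controls at 4.50 to 5.94 CPM, whereas the 6 Hp libraries of E2 held 3.77 to 8.09 CPM beside 3 E2 controls at 4.67 to 8.15 CPM. In E1 the Fosb libraries (2.88 to 6.09 against 1.45 to 2.35 CPM) and Fos libraries (71.2 to 92.1 against 55.2 to 69.1 CPM) were also separate from their controls.

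With each group split by experiment, Fosl1 rose with Hp at 24 h in E1 by 1.05 ± 0.20 (adjusted p = 0.000633) and Fosb by 1.43 ± 0.31 (adjusted p = 0.00264), where 1.63% of 16896 genes passed. In E2 the differences were −0.38 ± 0.24 for Fosl1 and −0.18 ± 0.37 for Fosb, and no gene passed, with 1 member under an unadjusted p of 0.05. The effect on Fosl1 was lower in E2 than in E1 by 1.43 ± 0.29 on the log2 scale (adjusted p = 0.00958, 0.124% of genes passing), and the Fosb difference of −1.61 ± 0.43 did not pass (adjusted p = 0.115). At 48 h Fosl1 (1.02 ± 0.21, adjusted p = 0.000226) and Fos (0.31 ± 0.10, adjusted p = 0.0175) rose in E1, where 20.0% of genes passed, and no member passed in E2 (0.0533% of genes), none of them under an unadjusted p of 0.05. The difference between experiments at 48 h passed for no member, with Fosl1 at −0.64 ± 0.34 (adjusted p = 0.268, 3.61% of genes). The E1 Hp libraries were all of batch 3 and only 1 E1 control per time was, so for Hp in E1 batch and treatment can hardly be told apart. Those single controls held 5.00 CPM of Fosl1 at 24 h and 4.46 CPM at 48 h, within the range of the other E1 controls.

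**Figure D3:**
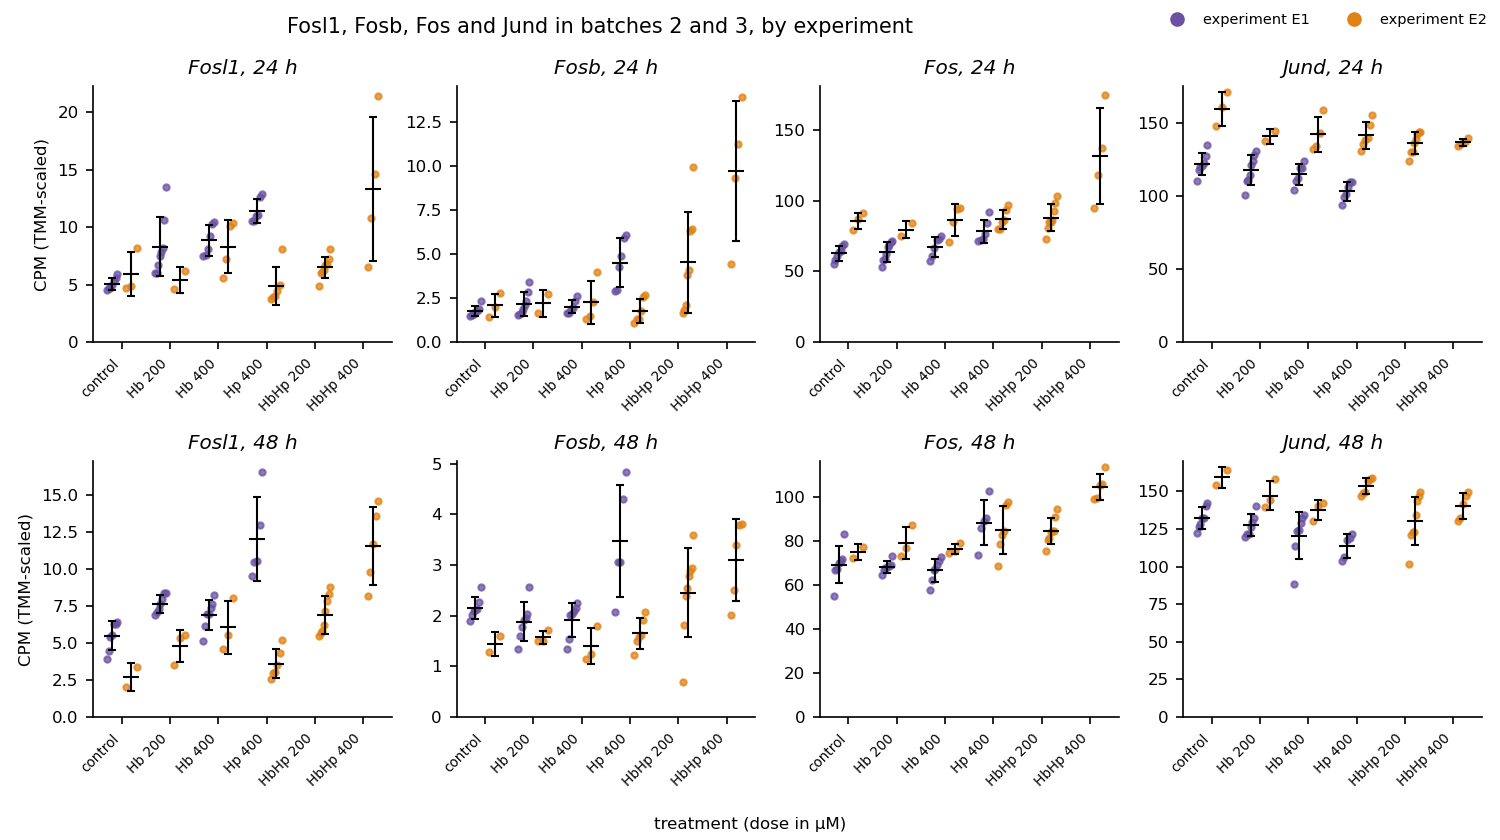
Fosl1, Fosb, Fos and Jund levels (CPM) in batches 2 and 3 at 24 h and 48 h by treatment, with libraries of E1 in purple and of E2 in orange; bars are the mean ± SD. The E1 libraries of Hp at 400 μM lie at 10.5 to 12.9 CPM of Fosl1 at 24 h, above the E2 libraries at 3.77 to 8.09 CPM.

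Measured against Hp alone, the HbHp complex at 400 μM had higher Fos (0.58 ± 0.09, adjusted p = 7.42e-05), Fosb (1.94 ± 0.29, adjusted p = 6.82e-06), Fosl1 (1.16 ± 0.23, adjusted p = 0.0022) and Jun (0.34 ± 0.07, adjusted p = 0.00078) at 24 h, where 0.619% of genes passed. Without HbHp replicate 1, Fosb alone remained past the test. At 48 h Fosl1 alone passed (1.11 ± 0.23, adjusted p = 0.00187, 1.44% of genes). With groups split by experiment, and so within E2, the 24 h comparison passed for those 4 members and Nr4a1 (0.52 ± 0.14, adjusted p = 0.032, 1.12% of genes) and the 48 h comparison for Fosl1 (1.70 ± 0.20, adjusted p = 6.89e-10) and Fos (0.31 ± 0.09, adjusted p = 0.0436, 3.01% of genes). In the same split, HbHp at 400 μM against the E2 controls, 3 at 24 h and 2 at 48 h, had higher Fosb (2.28 ± 0.40, adjusted p = 0.00014), Fosl1 (1.07 ± 0.26, adjusted p = 0.0169) and Fos (0.58 ± 0.12, adjusted p = 0.00321) at 24 h, with 1.37% of genes passing. At 48 h it had higher Fosl1 (2.08 ± 0.31, adjusted p = 1.98e-06) and Fos (0.46 ± 0.13, adjusted p = 0.0303), with 4.01% passing. The microglial markers had a median of 173 CPM in HbHp at 24 h (110 to 198) against 104 CPM in controls (39.9 to 222), none of the 5 passing the test, and the neuronal markers 497 CPM (320 to 605) against 585 CPM (476 to 666). Fibroblast and meningeal markers stood at 890 CPM (390 to 1480) against 423 CPM (199 to 2245), and endothelial markers at 95.1 CPM (62.3 to 111) against 60.04 CPM (41.5 to 279), with none of the 4 genes of either list passing. Astrocyte and oligodendrocyte markers had medians of 5628 against 5046 CPM and 31340 against 28210 CPM, again with no gene passing. The part of these shifts in the members' values was not tested.

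The 24 h and 48 h controls and the experiments were compared in the same model. Between 24 h and 48 h controls no member passed the test (4.50% of genes did, and 1 member had an unadjusted p under 0.05, with none by DESeq2). Between experiments 7 of the 10 members passed, beside 68.0% of all genes. Jund (0.34 ± 0.03, adjusted p = 6.11e-20), Junb (0.29 ± 0.05, adjusted p = 2.38e-07) and Fos (0.20 ± 0.04, adjusted p = 3.93e-06) were higher in E2. Fosl1 (−0.70 ± 0.10, adjusted p = 2.61e-09), Fosb (−0.45 ± 0.13, adjusted p = 0.00126), Nr4a2 (−0.18 ± 0.05, adjusted p = 0.00239) and Fosl2 (−0.15 ± 0.05, adjusted p = 0.00905) were lower. The experiment term is shared by all groups, and in 24 h controls mean Fosl1 and Fosb were not lower in E2. Fosl1 held 5.091 CPM in E1 and 5.91 CPM in E2 there, and Fosb 1.748 and 2.073 CPM. In 48 h controls Fosl1 (5.478 and 2.677 CPM) and Fosb (2.148 and 1.439 CPM) were lower in E2. With Hp alone the Fosl1 means were 11.44 and 4.875 CPM at 24 h, and 11.99 and 3.591 CPM at 48 h. The HbHp fold changes against control use the same term. At 400 μM and 24 h those of Fosb (2.75) and Fosl1 (1.63) were larger than against E2 controls only (2.28 and 1.07). At 48 h that of Fosl1 was smaller (1.73 against 2.08).

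The members did not vary as 1 block. After the group means were removed, the Pearson correlation over the 60 batch 1 libraries was 0.857 for Jun with Nr4a1, 0.806 for Fos with Nr4a1 and 0.799 for Fos with Junb. Nr4a2 went against Junb (−0.339) and Jund (−0.348). Over the assigned libraries of batches 2 and 3 the highest values were 0.572 for Fosl1 with Jun and 0.567 for Fosb with Jun, and Nr4a2 with Junb stood at −0.273. Depth differed between the libraries of a set, and the second set joined batches 2 and 3. Treatment effects that differ between experiments, as for Fosl1 with Hp, remain in the values of that set. All these values are descriptions of library spread with no test.

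**Figure D4:**
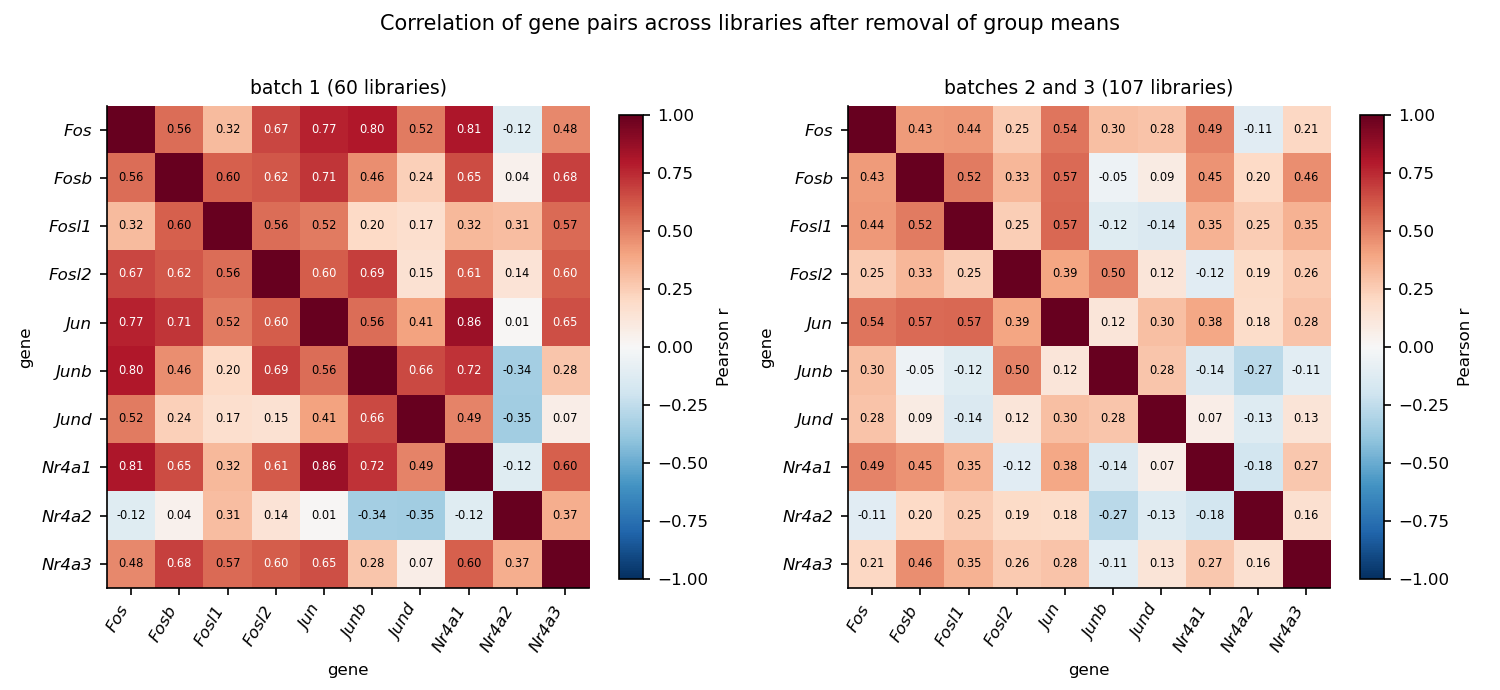
Pearson correlation of the members' log2 CPM after removal of group means (and, in batches 2 and 3, of batch and experiment), in 60 libraries of batch 1 and in the assigned libraries of batches 2 and 3. The highest values of batch 1 are 0.857 for Jun with Nr4a1, 0.806 for Fos with Nr4a1 and 0.799 for Fos with Junb, while Jun with Junb stands at 0.562.

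The genes most like each member were ranked by the same measure over all genes. In batch 1 (60 libraries) Ppp1r15a, the regulatory subunit that directs dephosphorylation of eIF2α, was first for Jun (0.894), Nr4a1 (0.898) and Fosb (0.755), and Gadd45b (0.881) and Rcan1 (0.861) followed for Jun. Mafk and Zfp36 were first for Fos (0.859 each), Sertad1 for Junb (0.913), Ypel3 for Jund (0.816) and Lif for Fosl2 (0.836). Fosl1 stood nearest to Tars (0.723), Hspa9 (0.721) and Tgif1 (0.717), and Nr4a3 to Nrg1 (0.767). In batches 2 and 3 the 3 genes nearest to Fosl1 were Gclm (0.744), Srxn1 (0.734) and Slc7a11 (0.726), which encode a glutathione synthesis subunit, sulfiredoxin and the cystine transporter. The terms removed there held no treatment effect that differs between experiments. The unlike Fosl1 levels of E1 and E2 with Hp (means of 11.44 and 4.875 CPM at 24 h) thus remain in these values. Their part in the correlations was not tested. Fos was nearest to Pdgfa (0.653), Jun to Phlda1 (0.588), Fosl2 to Synpo (0.849) and Junb to Fmnl3 (0.861).

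Other genes of the pathway were counted from written lists. Of 7 dimer partners of AP-1 proteins, including Atf3, Batf and Jdp2, none passed with heme-albumin at 200 or 400 μM or with hemeHpx, and Jdp2, a repressor of AP-1, fell with HbHp at 400 μM at 24 h (−0.35 ± 0.10, adjusted p = 0.0147). Of 17 upstream kinases and transcription factors, 4 rose and 1 fell at 400 μM heme-albumin, where 14.7% of all genes were higher and 14.3% lower, so the list stood near the share of all genes. Among them were Mef2d (0.23) and Map2k7 (0.19) up and Mef2c (−0.51) down. Of 32 other early response genes, 7 rose and 1 fell at 200 μM heme-albumin (median log2 fold change 0.08), where 13.6% of all genes passed and 6.98% were higher, and 16 rose and 1 fell at 400 μM (0.30), beside an all-gene median of −0.01 at both doses. Klf4 (1.41), a zinc finger factor, and Dusp1 (1.27), a phosphatase of mitogen-activated protein kinases, led, and Ccn2 fell (−0.58). HbHp at 400 μM raised 12 of the 32 at 24 h, with Egr3 (1.35) and Gadd45b (1.24) first, and 9 at 48 h, with Gadd45b (1.16) and Egr2 (1.02) first, where 3.10% and 7.39% of all genes were higher. Of 14 AP-1 targets, 6 rose and 2 fell at 400 μM heme-albumin, the cytokine gene Il6 (1.10) rising and Mmp13 (−1.05) and Plau (−0.53) falling. At 200 μM heme-albumin 2 rose and 2 fell, where 13.6% of all genes passed. HbHp at 400 μM raised 3 of the targets at 24 h, including Plaur (0.99), and 5 at 48 h, including Il6 (1.49) and Mmp12 (1.28), and lowered none, beside the same shares of all genes as above.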

How the data were processed

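Bulk TruSeq mRNA libraries of mouse brain slice cultures, 188 in all, of which 21 could be placed in none of the 18 groups, were analysed. For each library the authors deposited raw read counts per Ensembl gene, as whole numbers without normalization. The submitters' processing notes name featureCounts and GRCm39; the aligner, the annotation release, the strand setting and the versions are not given in the sources used here. Intervals and spreads rest on counts without molecular identifiers.

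Batch 1 (60 libraries, 15554 genes tested) and the assigned libraries of batches 2 and 3 (16473 genes tested) were fitted separately in edgeR 4.0.16 (R 4.3.3, limma 3.58.1) with filterByExpr (smallest count 10, smallest total 15), TMM scaling and the quasi-likelihood F test, with batch and experiment as terms in the second set. Every adjusted p is from this test with Benjamini-Hochberg adjustment over all genes tested, at 0.05, unless another tool is named. Fold changes are log2 values ± SE with 95% intervals, and levels are CPM on the TMM-scaled library size. A further fit split each group by experiment (16896 genes). Correlations used log2 CPM (prior count 2) after removal of the model terms. The alternatives were DESeq2 1.42.0, RLE scaling, no filter on low counts, other model terms, subsets of experiments, batches and times, a block for the code of the library name, and omission of single libraries. Experiment E1 alone, single batches, the correction for GC content and length, the split by experiment and the omission of HbHp 200 μM replicate 1 at 48 h and of replicate 9 of heme-albumin were chosen after seeing the data. The model was also run on simulated counts that held no batch or experiment differences, so that run does not bear on those terms. Figures and counts used Python 3.11.15, numpy 2.4.6, pandas 2.3.3 and matplotlib 3.10.9.

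The members and gene lists were chosen with earlier results of these data known. Of the 10 members, mainly those past the threshold are named in a comparison, and members that did not pass are not all named. From each list at most 2 genes per direction are named, those with the largest change among the ones past the threshold. One item that this rule selects is not reported here. Named correlates are the highest-ranked genes per member. Promoter sequences are from RefSeq (GRCm38.p6), and positions from GENCODE M21 on GRCm38, not the build of the counts.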

Additional observations from a re-analysis of the deposited data

Results flagged for a closer look

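In the 24 h and 48 h libraries that carry the HbHpx tag at 400 μM, and that could be placed in no group, 6 members lay above every control of batches 2 and 3 of the same time in all 10 libraries. The lowest of these libraries held 123.4 CPM of Fos at 24 h and 121.5 CPM at 48 h, against highest controls of 91.1 and 83.03 CPM. For Fosb the lowest held 5.584 and 3.695 CPM, for Fosl1 11.86 and 6.565 CPM, and for Jun 185.6 and 178.0 CPM. For Nr4a1 the lowest held 23.22 and 24.18 CPM and for Nr4a3 4.0 and 3.793 CPM. The medians at 24 h and 48 h were 138.9 and 137.8 CPM for Fos, 9.471 and 7.143 CPM for Fosb and 16.56 and 12.36 CPM for Fosl1. These are values of libraries with unsettled labels and were not tested. How many of all genes lay above every control in the same way was not counted. The 6 members can therefore not be set against a share of all genes. The tagged libraries were all of batch 3, and most of the controls were of batch 2. The 1 library with a missing treatment tag held 94.45 CPM of Junb and 177.0 CPM of Jund, each above the highest 24 h control (89.67 and 170.6 CPM). Its labels give both 24 h and 48 h, and among 48 h controls the highest were 100.9 CPM of Junb and 164.3 CPM of Jund.

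The effect of Hp alone at 400 μM on Fosl1 at 24 h differed between the experiments, with a log2 difference of −1.432 for E2 minus E1 (adjusted p = 0.00958 in edgeR), the E1 libraries being raised.

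Single libraries stood apart from their group by Dixon's criterion in 15 of 160 combinations of member and group, where chance gives about 8.0. HbHp at 200 μM and 48 h, replicate 1, was the low library for Fosb (0.6809 CPM), Fosl2 (26.35 CPM), Nr4a1 (13.38 CPM) and Nr4a3 (0.5107 CPM). Among controls of batches 2 and 3, Fosl1 reached 8.145 CPM in replicate 8 at 24 h and Nr4a1 23.33 CPM in replicate 9 at 48 h. In batch 1 Fosb reached 3.71 CPM in replicate 10 of 12.5 μM heme-albumin, Jund 119.0 CPM in replicate 8 of 50 μM and Fosl2 89.31 CPM in replicate 10 of hemeHpx. At 48 h Jun reached 159.2 CPM in replicate 9 of 200 μM Hb, 150.4 CPM in replicate 10 of 400 μM Hb and 190.7 CPM in replicate 1 of 400 μM HbHp. Fosl1 was low in replicate 7 of 200 μM Hb at 48 h (3.52 CPM), Jund in replicate 3 of 400 μM Hb at 48 h (88.23 CPM) and Nr4a1 in replicate 6 of 200 μM HbHp at 24 h (11.76 CPM).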

How the results depend on the processing

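Of 376 counts of members past the threshold under another setting, 311 were within 1.5 times the reported count or equal to it and 65 were not. Of the members' log2 fold changes, 3607 kept direction and side of the threshold, 105 lost the call, 46 gained one and 2 reversed; all 360 levels moved by less than 1 SD. The reversals were Jund with hemeHpx against control after correction for GC content and length together with the replicate block (−0.171, adjusted p = 0.0162 in edgeR), and Fosb for E2 against E1 within batch 2 (0.021, adjusted p = 0.883). The cause was not tested for these or for the counts that follow, other than that subsets hold fewer libraries. In batch 1, hemeHpx against control went from 2 members to 0 without the filter on low counts, 0 with the GC and length correction and 5 with the replicate block, and heme-albumin at 200 μM from 5 to 3 with the correction. Leaving out replicate 9 gave 3 at 200 μM and 8 at 400 μM, and single omissions gave 3 to 5 for 400 against 200 μM.

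For Hb at 400 μM and 24 h (1 member) the count was 0 with the correction plus block, the batch term only, neither term, E2 alone, batch 3 alone, each time alone and the E2 split, and for Hb at 200 μM and 24 h it was 1 in E1 alone against 0. For Hp at 400 μM the count of 0 became 1 at 48 h under DESeq2, the replicate block, the correction and both together, 3 with neither term, and 2 at 24 h and 2 at 48 h in E1 alone and in the E1 split. HbHp at 200 μM against control had 2 at 24 h with neither term and 0 in E2 alone, against 1, and 1 to 2 with single omissions. At 48 h it had 1, against 2, with the correction, the correction plus block, the batch term only, E2 alone, batch 3 alone and each time alone. HbHp at 200 μM against Hb, with 1 member at each time, had 0 at 24 h with the replicate block, the correction plus block, E2 alone, batch 3 alone and each time alone, and 2 with the batch term only and with neither term. At 48 h it had 0 without the filter, with the correction, the correction plus block, the batch term only, E2 alone, batch 3 alone, each time alone and without HbHp replicate 1, and 2 with neither term. HbHp at 400 μM against control, with 5 and 3 members, had 2 and 1 in E2 alone and 3 and 1 in batch 3 alone, and 3 to 5 and 2 to 3 with single omissions. Against Hb, with 4 and 4, it had 2 and 0 in E2 alone, 0 at 48 h in batch 3 alone and 2 at 24 h with each time alone, and 2 to 5 at both times with single omissions. Against Hp, with 4 and 1, it had 0 at 48 h with the batch term only and with neither term, and 1 to 5 and 1 with single omissions. E2 against E1 had 4 within batch 2, against 7.

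The replicate block used the code in the library name, which was not taken as a pairing. Deviations of libraries with the same code had a mean correlation of 0.136 in batch 1 (94 of 169 pairs over 0.1; −0.015 between codes) and 0.065 in batches 2 and 3 (124 of 291; −0.017), and 21 of the 60 libraries of batch 1 and 25 of the others correlated best with their own code. With the block, Junb, Nr4a1 and Nr4a2 joined the hemeHpx calls and Junb passed at 400 μM heme-albumin (adjusted p = 0.0188), while Nr4a1 with HbHp at 400 μM and 24 h (0.11) and Fosl1 for HbHp against Hb at 400 μM and 24 h (0.0534) did not pass. GC values covered 99.9% and 99.8% of the genes tested. Depth limits low members such as Fosb, with as few as 16 reads in a batch 1 control.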

Other observations

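The 20 libraries with the HbHpx tag at 400 μM, 10 at 24 h and 10 at 48 h, and 1 library of batches 2 and 3 whose treatment tag is missing belong to no comparison. The labels of the tagged libraries name different treatments, and the other has a control title of 24 h, a library name of 48 h and no treatment in its tag. Apart from the values given above, Fosl2 in the tagged libraries ran from 73.1 to 120 CPM at 24 h (median 97.8) and from 77.2 to 102 CPM at 48 h (median 86.9), with 8 and 9 of 10 libraries above the highest control of the time. Junb ran from 85.9 to 135 CPM at 24 h and from 91.3 to 142 CPM at 48 h (median 125), with 9 of 10 above the highest control at each time. Jund, at 106.5 to 135 CPM at 24 h and 113 to 153 CPM at 48 h, had no library above the highest control, and 5 and 4 libraries below the lowest. Nr4a2 overlapped the controls at both times, at 3.76 to 6.84 CPM and 3.89 to 9.98 CPM.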
